A study of Mus musculus with 4 samples.

Results

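Transcript levels of 7 interferon regulatory factor (IRF) genes, Irf1, Irf2, Irf4, Irf5, Irf7, Irf8 and Irf9, were followed in primary mouse squamous cell carcinomas from a control group and from a group with an inducible Kdm4a knockout. Kdm4a encodes a demethylase of lysines on histone H3. The 7 genes were taken by symbol from a table of 14159 genes, and each was in it. The rule that takes them names the genes and uses no values. RNA was sequenced from 2 control tumour libraries and 2 knockout libraries. The labels call the first group control and the second KDM4A knockout, and give every sample the same tissue (squamous cell carcinoma), no culture and the same treatment text, which names an inducible knockout of KDM4A. The strain, age, sex, the driver of the inducible knockout, its time of induction, the way the tumours arose and whether a library is 1 animal or a pool are not stated in the sources used here. No label says that the libraries came from separate tumours, so p-values cover only how far these samples vary, which may be technical variation.

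IRF proteins bind DNA through a conserved amino-terminal domain rich in tryptophans and recognise GAAA repeats, which form the interferon-stimulated response element (ISRE). When a cell senses foreign or misplaced nucleic acid, kinases activate IRF3 and IRF7, which switch on the interferon genes. Secreted interferon then acts through its receptors and STAT proteins, and IRF9 joins STAT proteins in a complex called ISGF3 that drives interferon-stimulated genes. IRF1 is induced by interferon gamma and drives antigen presentation genes, IRF2 binds the same sites and often restrains them, IRF5 acts below Toll-like receptors, and IRF4 and IRF8 direct the development of lymphoid and myeloid cells.

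Values are FPKM (fragments scaled to transcript length and to the mapped fragments of the library), so levels of different genes can be set side by side. The number of reads behind them is unknown, and no counting interval can be given. The control columns carry 1 shared name, so they are called libraries a and b. Of the 14159 genes, 12046 had at least 1 FPKM in at least 2 libraries and were tested with limma on log2(FPKM + 1). A gene is said to have risen or fallen where its adjusted p, by the Benjamini-Hochberg method over all genes tested, was under 0.05. All 7 IRF genes passed that filter. Kdm4a transcript was lower but still present in knockout (14.9 and 14.7 FPKM) compared with control (29.6 and 27.7 FPKM). The groups differed across much of the transcriptome: 63.9% of the genes tested passed the threshold, 30.1% as higher and 33.8% as lower in knockout. Expression of markers of squamous epithelium, the labelled tissue, was high in every library, with summed levels of 4249 to 7070 FPKM over 8 genes.

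Irf1, Irf7 and Irf9 rose in knockout, none of the 7 genes fell, and Irf2, Irf4, Irf5 and Irf8 did not pass the test. These are 3 of 7 higher, against 30.1% of all genes tested, and 0 of 7 lower, against 33.8%. The median log2 difference of the 7 genes was 0.47, and that of all genes tested was -0.03. In 3 of the 7 genes (Irf1, Irf7, Irf9) both knockout libraries lay above both control libraries, as they did in 40.4% of the genes tested, and in 2 (Irf2, Irf8) both lay below, as in 43.5%. In either direction 3 of 7 passed the threshold, against 63.9% of all genes tested, so the share of IRF genes that moved is not above the background. The sizes of the changes of Irf1 and Irf7 are what stand at the upper end: they ranked 189 and 270 from the top of the 12046 log2 differences.

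In control tumours the genes were ordered by mean level as Irf8 (23.9 FPKM), Irf2 (14.4), Irf1 (11.6), Irf5 (7.0), Irf9 (5.23), Irf7 (2.90) and Irf4 (0.758). No control library of one gene overlapped those of its neighbour in this order. In knockout tumours Irf1 came first (44.9 FPKM), above Irf8 (17.9) with no overlap. Irf8, Irf2 (13), Irf7 (11.3), Irf9 (7.61) and Irf5 (7.57) followed, and no neighbouring pair among these was separated by its libraries. Irf4 was again the lowest (1.45 FPKM) and lay apart from Irf5.

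**Figure D1:**
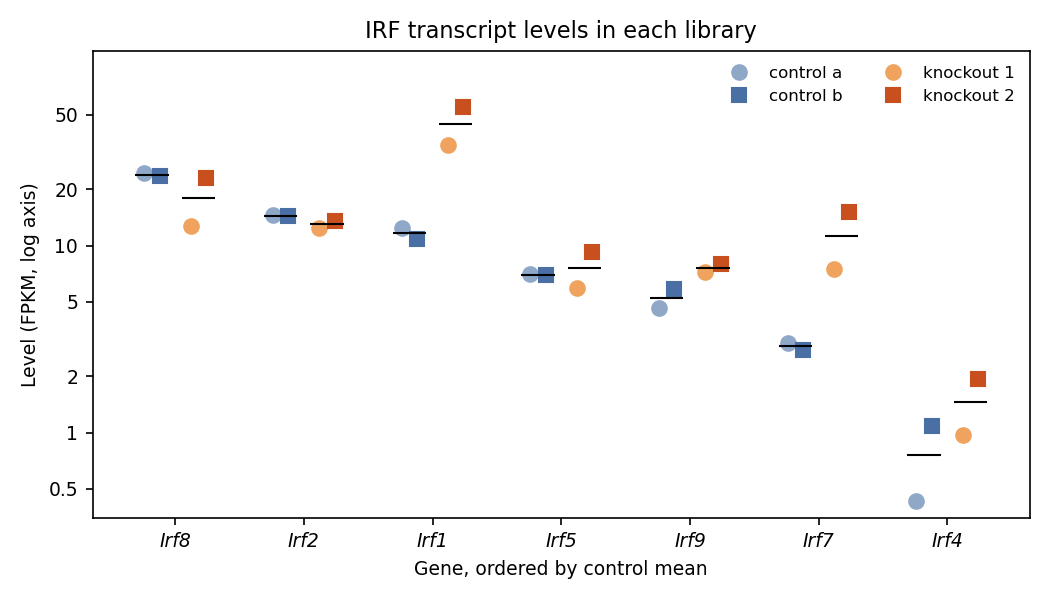
Level of each IRF gene in FPKM on a log axis, with genes on the horizontal axis in order of control mean, 1 point per library and a black line at each group mean. Irf1 and Irf7 lie clearly higher in both knockout libraries (means 44.9 against 11.6 FPKM and 11.3 against 2.90 FPKM), while Irf2 stays between 12.4 and 14.5 FPKM in all 4.

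Irf1 encodes the activator that interferon gamma induces most directly. Control libraries a and b held 12.4 and 10.9 FPKM of it, and knockout libraries 1 and 2 held 34.6 and 55.2 FPKM. The knockout libraries were both high and the groups did not overlap. The group means were 11.6 ± 1.04 and 44.9 ± 14.5 FPKM (SD, n = 2), a ratio of 3.86, and the log2 difference was 1.83 (SE 0.23, 95% interval 1.24 to 2.41, limma adjusted p = 0.00222). With 1 library left out at a time it lay between 1.5 and 2.15 and remained called each time.

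Irf2, which encodes the factor that occupies the same sites as IRF1 and often opposes it, was almost level. Its control values were 14.5 and 14.4 FPKM and its knockout values 12.4 and 13.6 FPKM. Both knockout libraries were slightly below both controls, but the difference of -0.14 did not pass the test (SE 0.09, 95% interval -0.36 to 0.08, adjusted p = 0.21). The interval leaves room for a fall or for a slight rise, and lies wholly below the interval of Irf1. The ratio of Irf1 to Irf2 transcript was 0.855 and 0.759 in the control libraries and 2.79 and 4.05 in the knockout libraries. Irf2 transcript was thus the more abundant of the pair in both controls and Irf1 in both knockouts. An exact two-sided permutation test of this ratio gave p = 0.333, the smallest p that 2 libraries against 2 allow (0.333 adjusted over 3 ratios).

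The promoters of these genes and of Irf7 and Irf8 are shown because Irf1 and Irf7 rose most, Irf2 stayed nearly level and Irf8 differed between the knockout libraries. Each runs 5′ to 3′ on the gene's strand from 250 bases before to 50 after the annotated start, from RefSeq on GRCm38.p6, and capitals mark matches to the motifs searched. The windows are chr11:53769764-53770063 (plus strand) for Irf1, chr8:46739495-46739794 (plus) for Irf2, chr7:141266375-141266674 (minus) for Irf7 and chr8:120736108-120736407 (plus) for Irf8.
Irf1: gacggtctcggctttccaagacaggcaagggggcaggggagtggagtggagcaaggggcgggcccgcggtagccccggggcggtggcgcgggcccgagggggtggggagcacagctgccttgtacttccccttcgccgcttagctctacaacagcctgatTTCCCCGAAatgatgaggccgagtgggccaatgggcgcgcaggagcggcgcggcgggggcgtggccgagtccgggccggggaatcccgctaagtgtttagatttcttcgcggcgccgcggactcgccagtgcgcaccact
Irf2: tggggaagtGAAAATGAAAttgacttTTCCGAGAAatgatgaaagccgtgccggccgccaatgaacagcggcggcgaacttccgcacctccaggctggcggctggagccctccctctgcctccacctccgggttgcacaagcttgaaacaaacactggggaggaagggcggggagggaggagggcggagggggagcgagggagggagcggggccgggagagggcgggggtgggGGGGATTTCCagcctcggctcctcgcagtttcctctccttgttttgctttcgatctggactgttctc
Irf7: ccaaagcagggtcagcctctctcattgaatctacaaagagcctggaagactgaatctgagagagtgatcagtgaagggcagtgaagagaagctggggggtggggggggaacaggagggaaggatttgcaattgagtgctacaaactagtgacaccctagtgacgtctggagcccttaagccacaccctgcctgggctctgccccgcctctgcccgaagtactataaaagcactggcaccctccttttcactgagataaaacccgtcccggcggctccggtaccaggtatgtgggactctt
Irf8: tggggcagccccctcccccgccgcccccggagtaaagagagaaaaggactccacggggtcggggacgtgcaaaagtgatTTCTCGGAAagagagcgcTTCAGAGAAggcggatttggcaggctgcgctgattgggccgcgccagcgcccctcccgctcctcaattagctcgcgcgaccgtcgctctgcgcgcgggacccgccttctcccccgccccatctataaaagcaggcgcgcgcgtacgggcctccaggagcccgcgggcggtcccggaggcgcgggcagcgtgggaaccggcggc

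The motifs were fixed patterns for the ISRE core (GAAA, any 2 bases, GAAA), the gamma-activated site (TTC, any 3 bases, GAA) and 1 form of the NF-kB site (GGG, any 2 bases, TTTCC), each on both strands. Sites that depart from these letters were not searched for, so a window without a match may still hold such a site. Among 32851 promoter windows of 300 bases, 3.44% held the ISRE core, 8.3% the gamma-activated site and 1.63% the NF-kB site. The Irf1 window held 1 match, TTCCCCGAA, a gamma-activated site at bases -90 to -82 from the start. The Irf2 window held all 3 motifs: the ISRE core GAAAATGAAA at -241 to -232, the gamma-activated site TTCCGAGAA at -224 to -216 and the NF-kB site GGGGATTTCC at -17 to -8. The Irf8 window held 2 gamma-activated sites, TTCTCGGAA at -171 to -163 and TTCAGAGAA at -153 to -145. None of the matches overlapped another. No match to these patterns was in the window of Irf7, in those of Irf4, Irf5 and Irf9, or in those at the second annotated starts of Irf1, Irf8 and Irf9. Among the 3 genes with a match, 1 rose and 2 did not pass the test, and among the 4 without, 2 rose.

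Irf7 encodes the factor that amplifies type I interferon production and is itself an interferon-stimulated gene. Control tumours had 3.02 and 2.78 FPKM, and knockout libraries 1 and 2 had 7.52 and 15.1 FPKM. The groups did not overlap, and knockout library 2 was 2.0 times as high as library 1. The means were 2.90 ± 0.168 and 11.3 ± 5.33 FPKM (SD, n = 2), a ratio of 3.89, with a log2 difference of 1.58 (SE 0.31, 95% interval 0.79 to 2.38, adjusted p = 0.00879). The difference was 1.13 without knockout library 2 and 2.04 without library 1, and the call held in both cases. Irf3, which encodes the partner of IRF7 in interferon induction and was added once its values were known, had 15.3 and 16.4 FPKM in control against 9.0 and 11.8 FPKM in knockout. Its fall of -0.58 (adjusted p = 0.0184) no longer passed when control library a (adjusted p = 0.0556) or b (0.0881) was left out or with quantile normalization (0.0506). The ratio of Irf7 to Irf3 was 0.197 and 0.17 in the control libraries and 0.835 and 1.28 in the knockout libraries.

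Irf9, whose product is the DNA-binding subunit of ISGF3, rose less. Its level was 4.62 and 5.84 FPKM in control compared with 7.26 and 7.96 FPKM in knockout, with no overlap between the groups. The log2 difference was 0.47 (SE 0.13, 95% interval 0.13 to 0.82, adjusted p = 0.0294), a ratio of means of 1.45. Its call depended on single libraries. It no longer passed when control library a (0.33, adjusted p = 0.207), knockout library 1 (0.53, 0.0514) or knockout library 2 (0.41, 0.0933) was left out, and held without control library b (0.61, 0.0468). The ratio of Irf7 to Irf9 was 0.654 and 0.476 in control and 1.04 and 1.89 in knockout (exact permutation p = 0.333, the smallest possible).

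Irf8, which encodes a factor of monocytes, dendritic cells and B cells, was the most abundant of the 7 genes in control tumours. The control values were 24.4 and 23.4 FPKM, and those of knockout libraries 1 and 2 were 12.7 and 23.1 FPKM. Only library 1 was far below the controls, and library 2 lay just under them. The log2 difference of -0.45 did not pass (SE 0.27, 95% interval -1.15 to 0.24, adjusted p = 0.197). It was -0.86 without knockout library 2 (adjusted p = 0.00267) and -0.05 without library 1 (0.52), so 1 library decides this value. Irf5, a mediator of Toll-like receptor signalling in macrophages and B cells, had 7.05 and 6.94 FPKM in control against 5.92 and 9.23 FPKM in knockout. Its knockout libraries lay on either side of the controls, and the difference of 0.07 (95% interval -0.44 to 0.59, adjusted p = 0.765) became -0.21 without library 2 (0.0878) and 0.35 without library 1 (0.0218). Irf4, which directs plasma cell and T cell differentiation, was near the level needed for testing, with 0.43 and 1.09 FPKM in control and 0.966 and 1.93 FPKM in knockout. Its groups overlapped, and its difference of 0.47 (SE 0.27, 95% interval -0.23 to 1.18, adjusted p = 0.185) lay between 0.19 and 0.76 with 1 library left out.

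**Figure D2:**
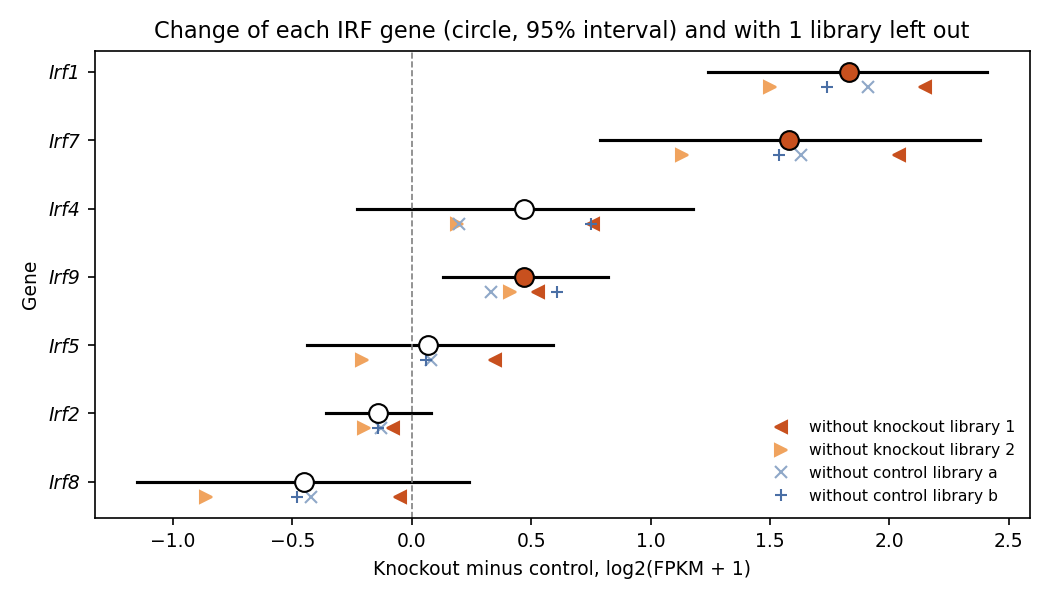
Log2 difference between knockout and control for each IRF gene, with circles for all 4 libraries (filled where adjusted p is under 0.05), lines for limma's 95% interval and small symbols for the value with 1 library left out. Irf1 and Irf7 keep values of at least 1.13 whichever library is left out, whereas Irf8 moves from -0.86 to -0.05 and Irf5 from -0.21 to 0.35 with the choice of knockout library.

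Irf4, Irf5 and Irf8 are genes of immune cells, and in bulk tumour RNA fewer cells of a type cannot be told apart from less RNA per cell. Macrophage and monocyte markers rose in 5 of 7 tested genes (8 listed) and none fell, with summed levels of 441 to 477 FPKM in control and 602 to 700 in knockout (3, 1 and 3 rose without control library a, control library b or knockout library 2). B cell markers rose in 7 of 8 and 1 fell, with sums of 41.3 to 44.1 FPKM in control, 53.5 in knockout library 1 and 86.1 in library 2. Blnk, the marker that fell (25.7 and 26.7 FPKM to 16.7 and 19.5), made up most of the control sum, and the other 7 summed to 15.6 and 17.4 FPKM in control and to 36.7 and 66.7 in knockout. Plasma cell markers rose in 0 and fell in 3 of 5 (sums 555 to 588 and 366 to 370 FPKM; 2 rose and 3 fell without knockout library 1). That sum is mostly Sdc1, which epithelium also expresses and which fell (480 and 505 FPKM in control, 332 and 302 in knockout). Xbp1 (54.7 and 55.2, 15.4 and 17.6, adjusted p = 0.000383) and Prdm1 (7.99 and 8.52, 5.22 and 6.34, adjusted p = 0.0238) also fell. Jchain (9.86 and 15.8, 14.2 and 31.7) and Mzb1 (1.88 and 3.05, 3.16 and 8.29) had higher means in knockout but did not pass the test. T cell markers rose in 8 of 8 (14.9 to 18.8 and 41.0 to 44.8 FPKM; 5 without control library b or knockout library 2). Conventional dendritic cell markers rose in 1 of 2 tested genes out of 7 listed (3.58 to 6.41 and 7.87 to 8.16 FPKM), and the defining gene Clec9a stayed between 0.13 and 0.403 FPKM. That count was 0 without control library b or knockout library 2. Plasmacytoid dendritic cell markers rose in 0 and fell in 1 of 5 tested (77.8 to 79.7 and 79.1 to 91.7 FPKM). The one that fell was Tcf4 (11.0 and 11.1 FPKM in control, 4.6 and 4.34 in knockout, adjusted p = 0.000726). Siglech, too low to be tested, was higher in both knockout libraries (0.497 and 0.258 FPKM in control, 0.637 and 1.07 in knockout). The sum is mostly Ly6d (40.8 to 56.3 FPKM) and Bst2 (17.1 to 23.7), and 2 genes rose without knockout library 1, or 1 with median-ratio scaling, quantile normalization or robust eBayes. NK and cytotoxic markers rose in 1 of 1 tested out of 6 listed (1.97 to 2.17 and 3.84 to 4.25 FPKM; 0 without control library b), and neutrophil markers in 3 of 5 with 1 fall (160 to 176 and 226 to 263 FPKM). The neutrophil marker that fell was Cxcr2 (10.7 and 10.7 FPKM in control, 4.21 and 5.67 in knockout). The neutrophil sum is mostly S100a8 (95.4 to 164 FPKM) and S100a9 (51.3 to 88.6 FPKM). Some immune markers, such as Pax5, Flt3 and Csf3r, were below 1 FPKM in both controls and passed the filter only through knockout. These marker counts are therefore descriptions. No listed marker that was in the table was at 0 in all 4 libraries. The part that shifts in cell content play in the IRF values was not tested.

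Among markers of other tissue, those of squamous epithelium fell in 5 of 8 genes and rose in 0 (6871 to 7070 FPKM in control, 4249 to 4453 in knockout). Salivary gland markers rose in 6 of 6 tested genes out of 7, from sums of 6.79 and 37.1 FPKM in control to 4853 in knockout library 1 and 1079 in library 2, and 3 were called with robust eBayes. Pip, Dcpp1 and Dcpp3 were below 1 FPKM in both controls and passed the filter only through knockout, so that count is a description. All 7 IRF genes, Irf8 among them, were lower in knockout library 1, which had the higher salivary sum, than in library 2, as were 41.9% of the genes tested. The part of that tissue in their values was not tested. Endothelial markers rose in 2 of 2 tested (14.9 to 15.3 and 23.1 to 26.7 FPKM; 1 when control library b or a knockout library was left out, or with no filter), fibroblast markers in 0 of 5 (22 to 26.0 and 24 to 28.6) and skeletal muscle markers in 0 of 6 (242 to 272 and 243 to 305), and none of these fell.

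The make-up of the family's transcript pool differed between the groups. The 7 genes together summed to 66.4 and 65.4 FPKM in control and to 81.5 and 126 FPKM in knockout. Irf1 made up 18.7% and 16.7% of that sum in control and 42.5% and 43.8% in knockout. Irf8 went the other way, with 36.7% and 35.9% in control and 15.6% and 18.3% in knockout. Irf7 was 4.55% and 4.26% in control and 9.23% and 11.9% in knockout, while Irf2 was 21.8% and 22% in control and 15.3% and 10.8% in knockout. Irf5 was 10.6% in both control libraries and 7.27% and 7.32% in knockout. In these 5 genes the shares of the groups did not overlap, and in Irf4 and Irf9 they did. The shares in a library add up to a fixed whole, so a larger share of Irf1 leaves less for the others. Separate shares are therefore not independent changes of level, and they were not set against a background of other genes. The levels of Irf2, Irf5 and Irf8 did not pass the test, and those of Irf5 overlapped between the groups (log2 difference 0.07). Irf8 took a lower share in knockout library 2 although its level there was near the controls, because the sum was larger. The ratio of Irf8 to Irf4, which is unsteady because Irf4 is so low, was 56.7 and 21.6 in control and 13.2 and 12 in knockout (exact permutation p = 0.333).

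**Figure D3:**
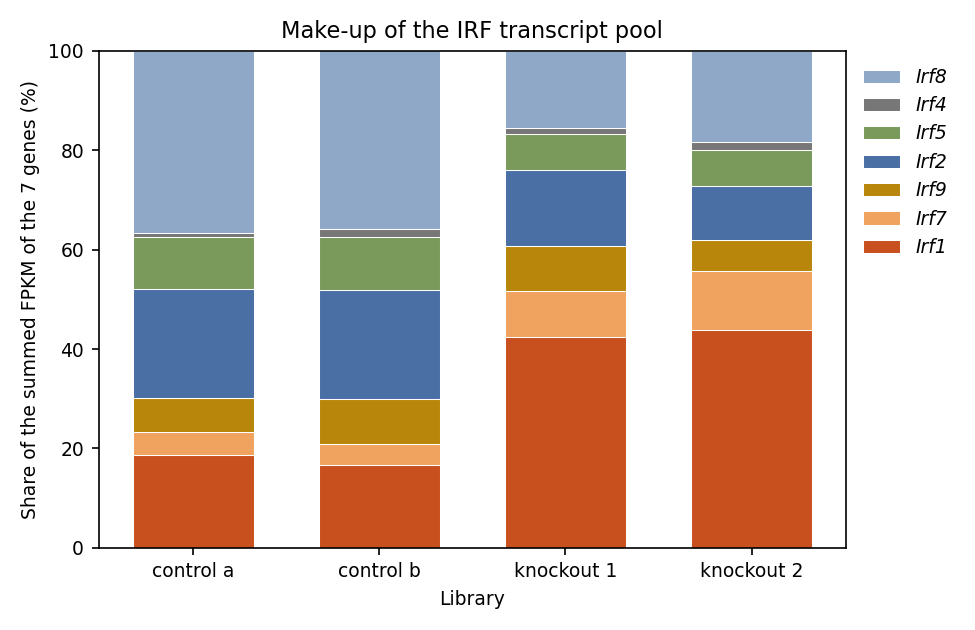
Share of each gene in the summed FPKM of the 7 IRF genes, as stacked bars for the 4 libraries. The share of Irf1 is 16.7% to 18.7% in control and 42.5% to 43.8% in knockout, and that of Irf8 is 35.9% to 36.7% and 15.6% to 18.3%.

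Of 73 tested genes that act around the IRFs, 47 rose and 12 fell, or 80.8% called against 63.9% of all genes tested. The lists were chosen with earlier results of these data known. Some members, such as Tlr9, Il15 and Ifna4, passed the filter only through knockout, so the larger share is a description and no independent test. Genes that activate IRFs were divided: of 19 tested (20 listed), 10 rose and 5 fell, with a median log2 difference of 0.35 (5 rose when control library a was left out and 6 when b was). The members that fell were Traf3 (-1.16, SE 0.10, adjusted p = 0.000871) and Traf6 (-0.88, adjusted p = 0.00116), ubiquitin ligases below the receptors, the adaptor genes Ticam1 (-0.73) of TLR3 and Mavs (-0.70) of the RNA sensors, and the kinase gene Chuk (-0.28, adjusted p = 0.0467), whose call needed both control libraries (adjusted p = 0.175 without a and 0.178 without b) and whose difference was -0.17 without knockout library 2. That call was also lost with no filter (0.0594), median-ratio scaling (0.0532) or eBayes without a trend (0.0666). Among those that rose, chosen after their values were seen, were the RNA sensor gene Ifih1, from 2.87 and 2.90 FPKM to 13.3 and 38.9 FPKM (2.62, adjusted p = 0.00733), the endosomal receptor genes Tlr9 (1.19) and Tlr7 (1.0), and Zbp1 (1.67), which encodes a sensor of nucleic acids. The genes of the kinases that phosphorylate IRF3 and IRF7 rose slightly, Tbk1 by 0.35 (adjusted p = 0.0168) and Ikbke by 0.47 (0.0202). Neither passed when control library a (adjusted p = 0.115 and 0.0549) or b (0.111 and 0.167) was left out, nor did Ikbke when knockout library 1 was (0.0523).

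Interferon receptor signalling genes rose in 3 and fell in 2 of 9, with a median of 0.21 (3 and 0 without either control library). Stat2, which encodes a partner of IRF9 in ISGF3 and was picked with its values known, rose from 5.89 and 7.25 FPKM to 10.8 and 13 FPKM (0.77, SE 0.14, adjusted p = 0.00733). The receptor kinase gene Jak1 rose by 0.48 (adjusted p = 0.00255). The receptor gene Ifnar1 (-0.47, adjusted p = 0.00894) and the kinase gene Jak2 (-0.71, adjusted p = 0.0139) fell. Neither passed when control library a (adjusted p = 0.104 and 0.0529) or b (0.0794 and 0.0511) was left out, nor did Jak2 once the trend with transcript length was taken out (0.0725).

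Genes that restrain IRFs were listed together with those of the IRF2-binding proteins. This list moved in both directions, 6 up and 3 down of 9, with a median of 0.55. The 3 that fell encode the IRF2-binding proteins, whose human members IRF2BP1 and IRF2BP2 were found as corepressors that bind IRF2. Their fall is therefore not read as a loss of restraint on IRFs. Irf2bp1 went from 10.6 and 11.1 FPKM to 3.25 and 3.20 FPKM (-1.49, SE 0.09, adjusted p = 0.000483). Irf2bp2 went from 39.1 and 41.1 to 20.4 and 16.5 FPKM (-1.09, adjusted p = 0.00142), and Irf2bpl from 13.5 and 15 to 6.87 and 5.54 FPKM (-1.08, adjusted p = 0.0019). In all 3 the knockout libraries lay well below the controls, while Irf2 itself was nearly level. The DNA-binding partners of IRF4 and IRF8 rose in 3 and fell in 1 of 7 tested (10 listed), with a median of 0.22. The lymphoid factor genes Ikzf3 (0.88, adjusted p = 0.0033) and Spib (0.93, adjusted p = 0.00927) rose and Tcf3 fell (-0.32, adjusted p = 0.0211, not passing without control library a at 0.141 or b at 0.0872). Spi1, which encodes the myeloid partner PU.1 and was picked with its values known, stood between 5.46 and 5.78 FPKM in all 4 libraries (-0.04, adjusted p = 0.733).

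Known targets of IRF7 and ISGF3 rose in 14 of 14 tested genes (16 listed), with a median of 3.27 and a range of 0.72 to 4.18. The members with the smallest p were themselves interferon genes, Ifnb1 (4.18, adjusted p = 0.000297) and Ifna4 (3.35, adjusted p = 0.000311), the latter of a family whose members can share reads. Known targets of IRF1 rose in 11 and fell in 1 of 15, with a median of 0.87. B2m, the light chain of class I molecules, rose from 310 and 295 FPKM to 672 and 737 FPKM (1.21, adjusted p = 0.000483), and the proteasome activator gene Psme2 by 0.87 (adjusted p = 0.00169). Casp1, which encodes an inflammatory protease, fell (-0.43, adjusted p = 0.0274), which no longer passed when control library a (adjusted p = 0.0897) or b (0.114) was left out or with quantile normalization (0.0601), and the difference was -0.28 without knockout library 1.

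**Figure D4:**
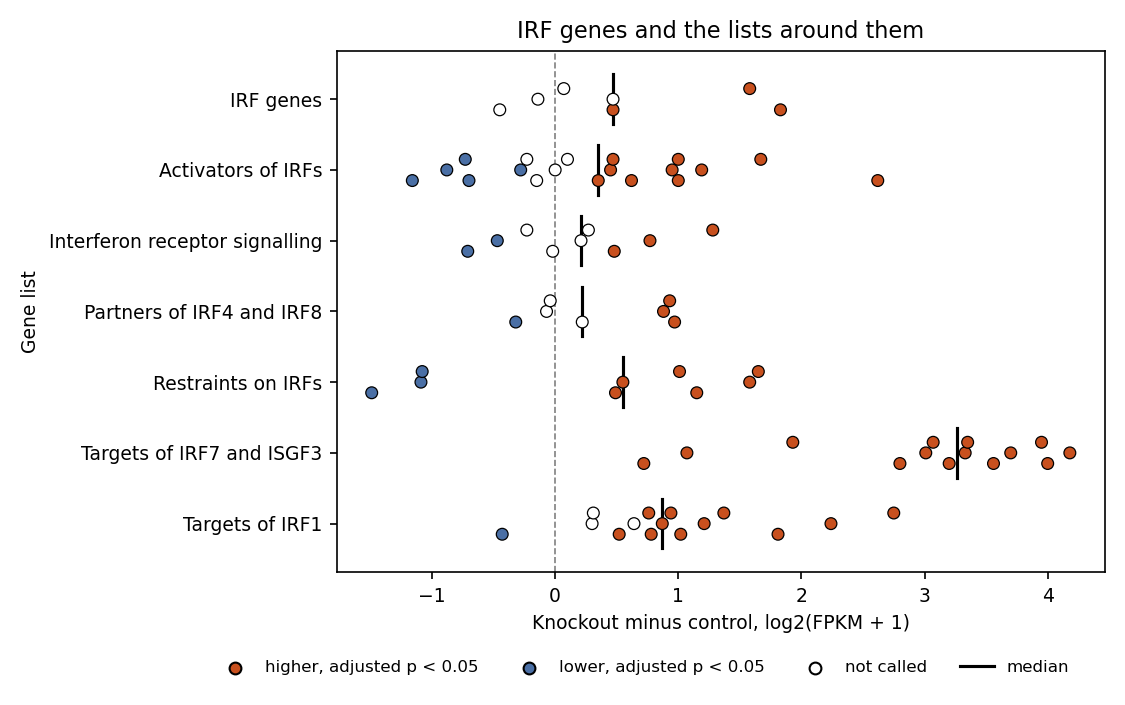
Log2 difference between knockout and control of each tested gene in 7 lists on the vertical axis, with 1 circle per gene coloured by its call and a black line at the median. The IRF genes lie between -0.45 and 1.83 around a median of 0.47, and the targets of IRF7 and ISGF3 between 0.72 and 4.18 around 3.27.

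For each IRF gene that rose, the 2 genes with the most similar profile over the 4 libraries were found among 8413 genes whose mean reached 5 FPKM, as the Euclidean distance between log2(FPKM + 1) values centred on each gene's mean. Irf1 was closest to the interferon-inducible GTPase gene Igtp (distance 0.13; 1.89 and 1.5 FPKM in control, 7.45 and 11.8 in knockout) and to Lcp2, which encodes an adaptor of immune receptors (0.15; 2.0 and 1.75, 6.26 and 11.9). Irf7 was closest to Socs1, which encodes an inhibitor of cytokine signalling (0.13; 2.98 and 3.14, 8.18 and 15), and then to Lcp2 (0.18). Irf9 was closest to the vitamin B12 carrier gene Tcn2 (0.035; 4.87 and 6.29, 7.87 and 8.35) and to Tigit, which encodes an inhibitory receptor on T cells (0.037; 7.02 and 8.78, 11.2 and 12). Igtp, Lcp2 and Socs1 share with Irf1 and Irf7 a higher value in knockout library 2 than in library 1, which follows from their choice by profile. With 4 libraries such distances are a description of these samples.

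The positions of the 7 genes bear on what their values hold. In GENCODE M21 on GRCm38, a later build than the authors' mm9, Irf1 lies on chromosome 11 from 53770014 to 53778374, Irf7 on chromosome 7 from 141262706 to 141266481 and Irf9 on chromosome 14 from 55603571 to 55610030. Irf2 lies on chromosome 8 from 46739732 to 46847458, and Irf8 on the same chromosome from 120736358 to 120756694. Irf4 lies on chromosome 13 from 30749226 to 30766976 and Irf5 on chromosome 6 from 29526625 to 29541871. The longest annotated transcripts of the 7 genes shared no stretch of 30 bases with each other. For Irf2 and Irf7 that transcript has 1 exon, for Irf8 2 and for Irf9 3. The comparison may therefore leave out their spliced coding sequence and cannot show that their reads are distinct. Irf7 shares 45 bases with Phrf1 on the opposite strand, Irf9 shares 123 with Rnf31 on its own strand, and Irf5 shares 1045 with Tnpo3 on the opposite strand. The annotation also places Gm20388 on the strand of Irf8 over the whole 20337 bases of that gene, Gm17334 on the opposite strand over 907 bases of Irf1, and Gm45479, Gm31172 and Gm45481 on the opposite strand of Irf2 over 1723, 433 and 877 bases. None of these 5 has a value here, so how their reads were assigned is unknown, and the values of Irf1, Irf2 and Irf8 may hold some of them. Irf4 overlaps no annotated gene. Whether the counting used strand is not stated. Tnpo3 stood between 64.9 and 71.2 FPKM in all libraries, several times the level of Irf5, so the single values of Irf5 are uncertain. Phrf1 lay lower in both knockout libraries (17.1 and 17.5 FPKM in control, 15.2 and 13 in knockout) but did not pass the test (-0.28, adjusted p = 0.0621). Rnf31 fell (18.5 and 18.7, 10.8 and 12.3, -0.64, adjusted p = 0.00342). The part of reads from these neighbours in the values of Irf7 and Irf9 was not tested.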

How the data were processed

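TopHat, Cufflinks and the mouse build mm9 are named in the submitters' processing notes, and their versions, the annotation and any filters are not stated in the sources used here. Per the labels' protocols, polyadenylated RNA was purified on beads from Trizol extracts and made into stranded libraries. The authors deposited 1 table of FPKM values in a sheet named for CPM. The values were read as FPKM because columns summed to 592281 to 626719 and longer transcripts did not have higher levels (rank correlation -0.085 to 0.013 across 14031 genes).

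Genes that reached 1 FPKM in 2 or more libraries were fitted with limma 3.58.1 in R 4.3.3 on log2(FPKM + 1), knockout against control, with eBayes and a trend. Tests were two-sided, with 2 residual and 2.93 prior degrees of freedom, and the pseudocount understates changes of low genes. The fit was checked on simulated data. Lists were described by counts and medians over the same fit, with no set test.

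The IRF genes and all lists were chosen with earlier results of these data known. Apart from the IRF genes, the rule named the 2 genes of each list of pathway genes with the smallest p, those called against their list's majority, and the 2 genes with profiles closest to each IRF gene that rose. One gene that this rule names is not reported here. Protein sequences were not used here. Alternatives changed the pseudocount, filter, scaling, eBayes settings and length trend, or left out 1 library.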

Additional observations from a re-analysis of the deposited data

How the results depend on the processing

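The calls on Irf1 and Irf7 held under every alternative run, with log2 differences of 1.5 to 2.15 and 1.0 to 2.04. The number of IRF genes called higher was 2 to 3 and the number called lower 0 to 1 with 1 library left out, the latter being Irf8 without knockout library 2. The count over all genes lay between 5245 and 8146 and that over the genes around the IRFs between 45 and 62 with 1 library left out. Irf5 changed sign after the length trend was removed (-0.03) and without knockout library 2 (-0.21), with values of up to 0.35 when 1 library was left out. Spi1 changed sign with quantile normalization (0.09), and Tnpo3 after the length trend was removed (0.10) and without knockout library 2 (0.04), with values down to -0.09 when 1 library was left out. None of these 3 genes was called in the fit of all libraries, and the cause was not tested. Tap1, not called with all libraries (0.64, adjusted p = 0.0629), was called without knockout library 1 (0.97, 0.00641), with quantile normalization (0.0482) and with robust eBayes (0.0436). Irf4 had too low a level for the filter of 5 FPKM. No paired analysis was possible because both control columns carry the same number. A pseudocount of 5 lowers the log2 difference of genes with low values, among them Irf7 (1.0), Irf9 (0.3), Tlr9 (0.43), Tlr7 (0.49) and Ikzf3 (0.37), with their calls kept. Removing the length trend moved Traf3 to -0.77 and Traf6 to -0.55. Depth is unknown, so its limits could not be given.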

Other observations

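All 7 IRF genes were higher in knockout library 2 than in knockout library 1, as were 41.9% of the genes tested. The difference on the log2(FPKM + 1) scale was 0.91 for Irf7, 0.81 for Irf8, 0.66 for Irf1, 0.57 for Irf4, 0.56 for Irf5 and 0.12 for both Irf2 and Irf9. The median over all genes tested was -0.04, and the median absolute difference was 0.14 between the knockout libraries and 0.07 between the control libraries. Irf8 therefore took part in this difference although it was not higher in knockout than in control. Over the same pair of libraries, the known targets of IRF7 and ISGF3 differed by a median of 0.90, the targets of IRF1 by 0.43, B cell markers by 0.70, macrophage and monocyte markers by 0.26, T cell markers by 0.10 and salivary gland markers by -1.93. The difference between 2 single libraries has no replicate and was not tested.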
